A study of Mus musculus with 8 samples.

Results

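The circadian clock genes described here are Per1, Per2, Per3, Cry1, Cry2, Clock, Nr1d1, Nr1d2, Dbp and Tef. They were chosen by name, with earlier results of these data known, and all 10 were found among the 17983 gene symbols of the deposited tables. The messenger RNA came from whole brains of male db/db mice, which lack a working leptin receptor throughout the body and become obese and diabetic. Both groups carried that genotype, so no lean or leptin-sensitive mouse stood beside them. The ketogenic group (4 libraries) ate a ketogenic diet, a class of diets rich in fat and very poor in carbohydrate, and the control group (4 libraries) a normal diet, each between the ages of 9 weeks and 6 months. The composition of the diets is not given in the sources used here. Neither is the hour of the day at which brains were taken. The question was how diet related to the level of each clock gene and to the relations between clock genes within a library.

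The mammalian clock is a loop of transcription factors that runs in nearly every cell. The proteins CLOCK and ARNTL (BMAL1) bind E-box sequences and switch on the Per and Cry genes, whose proteins return to the nucleus and repress that activity. The nuclear receptors NR1D1 and NR1D2 (REV-ERB alpha and beta) form a second loop by repressing Arntl, and DBP and TEF carry the rhythm to output genes through D-boxes. In rodent tissues Nr1d1 and Dbp RNA peak in the light phase, Per RNAs follow, and Cry1 and then Arntl come later, while Clock RNA swings little. A whole brain mixes the suprachiasmatic nucleus, the light-set pacemaker, with far more tissue from other regions.

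Total counts ran from 34450860 to 40233361 per library. Neuron markers summed to 6122 to 7058 CPM (each count scaled to a common library total, with TMM factors) in control and 5571 to 6695 in ketogenic libraries, with 0 of 5 past the threshold. Astrocyte markers summed to 1244 to 1498 against 1188 to 1254, with 4 of 5 lower. Blood markers summed to 14.8 to 50.1 against 65.7 to 108, with 3 of 4 higher. Past the threshold (edgeR adjusted p under 0.05) 3.22% of all tested genes were lower and 3.3% higher. The 7 suprachiasmatic and hypothalamic markers summed to 70.5 to 75.4 against 64.4 to 97.6, oligodendrocyte markers to 4742 to 5085 against 4378 to 5859, microglia markers to 187 to 205 against 192 to 236 with 1 of 5 higher (Tmem119), and endothelial markers to 135 to 169 against 140 to 159. Of the 7, Avp was at 11.4, 11.3, 17.5 and 9.93 CPM in control and 11.2, 33.5, 4.72 and 18.3 CPM in ketogenic libraries. Avp did not pass (edgeR adjusted p = 0.517). Vip ran from 26.4 to 34.4 against 24.1 to 40.8 CPM. Choroid plexus markers summed to 581 to 1127 against 1050 to 1356, pineal markers to 0.532 to 1.08 against 0.207 to 1.15, liver markers to 0.14 to 1.45 against 0.245 to 0.462, and muscle markers to 4.68 to 7.75 against 7.48 to 9.68. No marker on these lists was at 0 in all 8 libraries. Fewer cells of a type and less RNA per cell cannot be told apart in such bulk samples, and the part of any of these cell types in the clock gene values was not tested. The labels do not state that each library is a separate animal, so p-values measure the spread between these libraries.

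Clock genes were split by diet. Per1 and Nr1d1 were lower in ketogenic brains, by 1.25-fold and 1.20-fold, and Cry1, Per2, Cry2 and Tef were higher, by 1.33-fold, 1.30-fold, 1.17-fold and 1.17-fold. Per3, Dbp, Nr1d2 and Clock did not pass. Passing means an adjusted p below 0.05 (edgeR, quasi-likelihood test, adjusted by Benjamini and Hochberg's method over the 14895 genes tested, the 10 clock genes among them). The 6 of 10 that passed stand beside 6.52% of all tested genes, the 4 higher beside 3.3% and the 2 lower beside 3.22%. The median log2 change of the 10 was 0.16, against -0.0029 over all tested genes, and their median size without sign was 0.23, against 0.13. The values of the 2 diets did not overlap for 1 of the 10, Tef, where 13.7% of all tested genes had no overlap.

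These calls depended on single libraries, as did those over all genes. When control replicate 1, control replicate 2 or ketogenic replicate 2 was left out, 0 of the 10 passed in edgeR, with 6, 7 and 6 at an unadjusted p under 0.05. In those fits 0.971%, 1.36% and 1.31% of all tested genes passed, so calls were lost over the whole table too. An unadjusted p under 0.05 was met there by 2758 of 15043, 3037 of 15038 and 3012 of 14998 tested genes. Leaving out control replicate 3 left 1 of the 10 (beside 2.81% of all genes), ketogenic replicate 1 left 3 (3.91%) and ketogenic replicate 3 left 2 (4.75%). Leaving out ketogenic replicate 4 left 4 (3.58%) and control replicate 4 left 6 (12.7%). Every one of the 10 kept its direction in all 8 of these fits, with Per1 at -0.37 to -0.29 and Cry1 at 0.34 to 0.54 in log2. The DESeq2 Wald test on all 8 libraries called 6 (12.8%), and limma-voom called 5 (5.83%), without Cry1. After correction of each library for its trend on GC content and gene length, 1 clock gene, Per1, passed, beside 2.01% of all tested genes, and the sign of Clock turned. The degree of the smoothing in that correction was changed from 1 to 2 after the first output had been seen, and at degree 1 Per1 passed too (edgeR adjusted p = 0.0138). The same 1 passed with the GC and length trends taken out in turn (2.09%), a form chosen after seeing the data. With limma on log2 FPKM 0 of the 10 passed at a pseudocount of 1 or 0.1, with 6 at an unadjusted p under 0.05 in each, beside 0.356% and 0.489% of the 17983 unfiltered genes. Of those unfiltered genes 3672 and 3652 had an unadjusted p under 0.05.

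Short promoter windows of the clock genes were searched for known binding motifs, and letters outside these windows were not searched. RefSeq windows on GRCm38.p6 (250 bases before to 50 after each start) were found for 9 of the 10 genes, 13 windows in all, and none for Per2. The E-box was searched as CACGTG, the E′-box as CACGTT, the D-box as TTATGTAA or TTACGTAA, the cAMP response element as TGACGTCA and the REV-ERB and ROR element as TAGGTCA, each on both strands. CACGTT reads AACGTG on the other strand, and no match overlapped another. CACGTG was in the windows of Per1, Cry1 and Tef (3 of 9 genes, beside 8.09% of the 27025 genes and 7.15% of the 32851 windows in the table), CACGTT in those of Cry1, Cry2 and Nr1d1 (3 of 9, beside 5.44% of genes and 4.68% of windows) and the D-box in that of Per3 (1 of 9, beside 1.23% and 1.06%). The cAMP response element (2.03% of genes, 1.79% of windows) and TAGGTCA (2.97% and 2.61%) were in 0 of the 13 windows. The stretches below run 5′ to 3′ on the gene's strand, with the match in capitals. They are shown because genes with an E-box or E′-box in these windows lay on both sides of the diet difference.
Per1 (lower), chr11:69098761-69098810, plus strand, match starting 166 bases before the start: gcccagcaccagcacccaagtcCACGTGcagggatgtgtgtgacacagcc
Nr1d1 (lower), chr11:98775378-98775427, minus strand, 28 bases before: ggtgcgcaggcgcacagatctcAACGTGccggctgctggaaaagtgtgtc
Cry1 (higher), chr10:85185087-85185136, minus strand, 60 bases before: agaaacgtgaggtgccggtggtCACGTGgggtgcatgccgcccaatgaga
Cry2 (higher), chr2:92434208-92434257, minus strand, 166 bases before: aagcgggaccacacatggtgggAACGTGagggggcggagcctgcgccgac
Tef (higher), chr15:81802524-81802573, plus strand, 127 bases before: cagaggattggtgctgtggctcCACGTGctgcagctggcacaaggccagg
Per3 (did not pass), D-box, chr4:151044841-151044892, minus strand, 205 bases before: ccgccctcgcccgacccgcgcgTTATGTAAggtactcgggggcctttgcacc
Per1 and Nr1d1 thus carry these letters along with Cry1, Cry2 and Tef. The Cry1 window holds its E′-box 79 bases before the start, and that match lies in small letters in the Cry1 stretch above. Tef holds its E-box in a window at another start too, while the Per1 window at another start holds 0 matches. Both Per1 windows (chr11:69098699-69098998 and 69099902-69100201) lie inside the bounds that GENCODE gives the gene, 69095217-69109960. The letters at the GENCODE 5′ end of Per1 were thus not searched for any of the motifs. The windows of Clock, Nr1d2 and Dbp hold 0 matches. Per3 holds a second D-box 158 bases before the start. A match is a description of letters, not of a bound site.

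**Figure D1:**
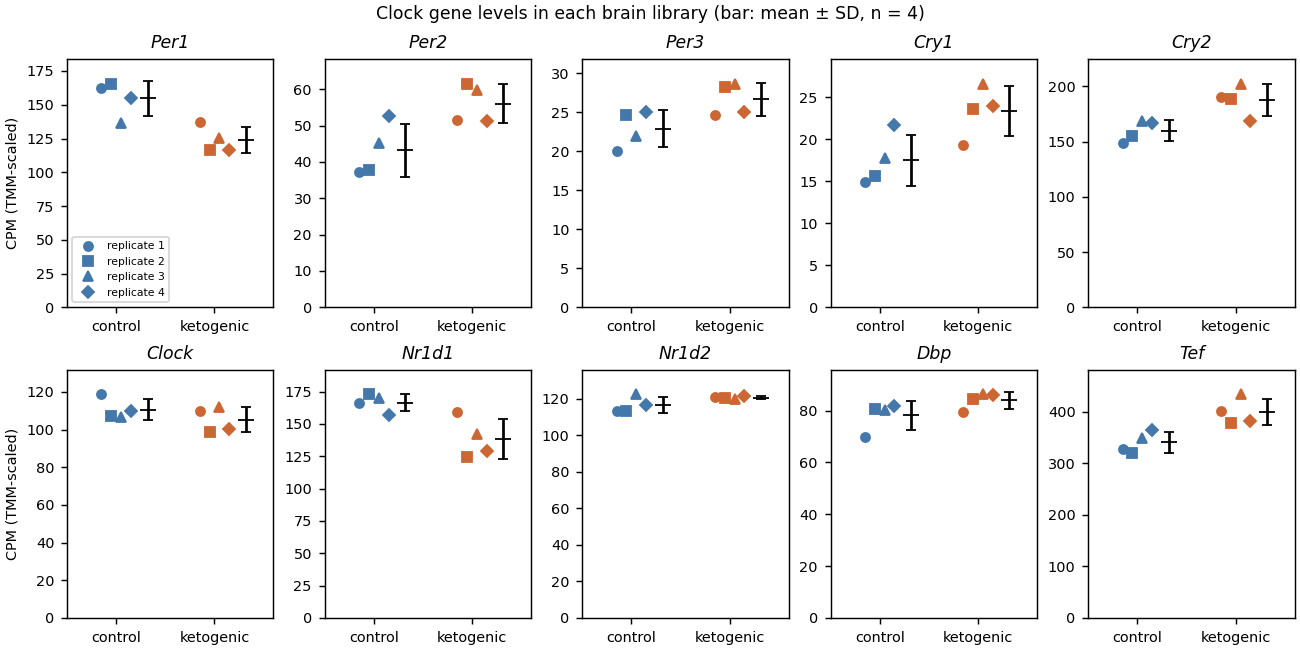
CPM (linear axis from 0) of the 10 clock genes in each control (blue) and ketogenic (orange) library, with a marker shape for each replicate number and a bar for mean ± SD over 4 libraries. Tef is the one gene whose groups do not overlap (321 to 364 against 378 to 434), while Per1 and Nr1d1 sit lower and Per2 and Cry1 higher in ketogenic libraries with overlapping ranges.

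The Period genes, whose proteins form the repressor complex with the cryptochromes, did not move together. Gene bounds here are those of GENCODE on GRCm38. Per1 (chr11:69095217-69109960), the family member that light, neuronal activity and glucocorticoids induce fastest, was at 162, 165, 136 and 155 CPM in control replicates 1 to 4. In ketogenic replicates 1 to 4 it was at 138, 117, 125 and 117 CPM. Control replicate 3 lay just below ketogenic replicate 1, and the other libraries kept the groups apart. The mean went from 155 ± 13.1 to 124 ± 9.78 CPM (SD, n = 4 libraries a diet), which is -0.32 ± 0.07 (SE) in log2 (edgeR adjusted p = 0.0187). It passed in 5 of the 8 fits that leave out 1 library. It also passed after the GC and length correction (-0.39 in log2, edgeR adjusted p = 0.0117).

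Per2 (chr1:91415982-91459324), the paralog whose loss shortens and then abolishes the rhythm in mice, went the other way. It was at 37.2, 37.7, 45.2 and 52.6 CPM in control and 51.6, 61.4, 59.8 and 51.1 CPM in ketogenic libraries. Control replicate 4 was above ketogenic replicates 1 and 4, and control replicates 1 and 2 were far below all the others. The mean went from 43.2 ± 7.27 to 56.0 ± 5.38 CPM, or 0.37 ± 0.10 in log2 (edgeR adjusted p = 0.0387). Per2 passed in 2 of 8 fits with 1 library left out, and after the GC and length correction it stood at 0.35 in log2 (edgeR adjusted p = 0.0809).

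Per3 (chr4:151003652-151044665), which is dispensable for the core loop and is itself a D-box output, was at 20.1, 24.6, 21.9 and 25.0 CPM in control and 24.7, 28.3, 28.6 and 25.0 CPM in ketogenic libraries. The log2 change of 0.22 ± 0.09 did not pass (edgeR adjusted p = 0.141). Control replicate 1 was the lowest library for Per3 as well as for Per2. Per3 overlaps the much longer gene Camta1 on the same strand, so reads there are uncertain.

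The cryptochromes, flavoproteins that repress CLOCK and ARNTL, were both higher. Cry1 (chr10:85131700-85185064), the later-peaking and stronger repressor, was at 14.9, 15.7, 17.8 and 21.7 CPM in control and 19.3, 23.6, 26.6 and 23.9 CPM in ketogenic libraries. Control replicate 4 lay above ketogenic replicate 1, and the other values did not cross between diets. The mean went from 17.5 ± 3.02 to 23.3 ± 3.0 CPM, or 0.41 ± 0.12 in log2 (edgeR adjusted p = 0.0479). This was the largest change of the 10 clock genes in size, in a gene with the second lowest level by FPKM.

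Cry2 (chr2:92403646-92434043) was at 149, 155, 169 and 167 CPM in control and 191, 189, 202 and 168 CPM in ketogenic libraries. Ketogenic replicate 4 sat among the controls and the other 3 ketogenic libraries stood above them. The mean went from 160 ± 9.40 to 188 ± 14.2 CPM, or 0.23 ± 0.06 in log2 (edgeR adjusted p = 0.0398). Cry1 and Cry2 each passed in 2 of 8 fits with 1 library left out, and after the GC and length correction they stood at 0.39 and 0.19 in log2 (edgeR adjusted p = 0.0861 and 0.168). Cry1 missed the threshold with limma-voom (adjusted p = 0.0532).

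Within the control group Per2 and Cry1 spread the most of the 10 genes, with a coefficient of variation of 16.8% and 17.3%, against 3.70% for Nr1d2 and 4.09% for Nr1d1. Both were lowest in control replicates 1 and 2 and highest in control replicate 4. The control libraries stood in the same order on the first principal component of all tested genes, which held 22.9% of the variance (-22.7, -18.7, -9.47 and -5.94 for control replicates 1 to 4). In the ketogenic group the component was at 11.2, 8.28, 34.4 and 2.9, and there the orders differed: Cry1 was highest in replicate 3 but lowest in replicate 1, and Per2 was highest in replicate 2. What part that component has in the Per2 and Cry1 values was not tested.

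Clock (chr5:76209868-76304792), the activator gene of the loop among the 10, did not pass. It was at 119, 107, 107 and 110 CPM in control and 110, 98.8, 112 and 100 CPM in ketogenic libraries, and the groups overlapped widely. The log2 change was -0.07 ± 0.06 (edgeR adjusted p = 0.503), and 0.05 after the GC and length correction. Arntl, which encodes the partner of CLOCK, was at 52.0, 43.8, 48.1 and 48.3 CPM in control and 46.2, 40.6, 42.8 and 38.0 CPM in ketogenic libraries. Its log2 change of -0.20 ± 0.07 did not pass (edgeR adjusted p = 0.112). Npas2, which can stand in for Clock in the forebrain, had a log2 change of -0.11 ± 0.09 (edgeR adjusted p = 0.490).

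The REV-ERB genes differed from each other. Nr1d1 (chr11:98767932-98775333), a heme-sensing repressor of Arntl, was at 166, 173, 170 and 157 CPM in control and 159, 125, 142 and 129 CPM in ketogenic libraries. Only ketogenic replicate 1 reached the control range, just above control replicate 4. The mean went from 166 ± 6.81 to 139 ± 15.5 CPM, or -0.26 ± 0.07 in log2 (edgeR adjusted p = 0.0362). Nr1d1 passed in 3 of 8 fits with 1 library left out, and after the GC and length correction its change was -0.31 in log2, larger in size, with an edgeR adjusted p of 0.0547. The gene shares its 3' end with Thra, a thyroid hormone receptor gene on the opposite strand. Thra was higher in ketogenic libraries, at 864 ± 8.44 against 995 ± 38.6 CPM (log2 change 0.20 ± 0.05, edgeR adjusted p = 0.0244). Because the strand setting of the counting is not known here, reads of the shared stretch cannot be told apart.

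Nr1d2 (chr14:18204054-18239127), the paralog with overlapping function, was at 113, 113, 122 and 117 CPM in control and 121, 121, 120 and 121 CPM in ketogenic libraries. The 4 ketogenic values had a coefficient of variation of 0.592%, and control replicate 3 was above all of them. The log2 change was 0.05 ± 0.05 (edgeR adjusted p = 0.572).

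Dbp and Tef encode related PAR-domain leucine zipper factors that activate D-box genes. Dbp (chr7:45705088-45710203), whose RNA swings widely over the day in most tissues, was at 69.9, 80.8, 80.3 and 81.8 CPM in control and 79.3, 84.5, 86.2 and 86.1 CPM in ketogenic libraries. Control replicate 1 stood below the other 7 libraries. The log2 change of 0.10 ± 0.06 did not pass (edgeR adjusted p = 0.319). Dbp overlaps Sphk2 on the opposite strand, which had a log2 change of -0.03 ± 0.10 (edgeR adjusted p = 0.868).

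Tef (chr15:81802421-81826863) was at 328, 321, 349 and 364 CPM in control and 403, 378, 434 and 383 CPM in ketogenic libraries, with a gap between the groups. The mean went from 341 ± 19.9 to 399 ± 25.4 CPM, or 0.23 ± 0.06 in log2 (edgeR adjusted p = 0.0343). Tef passed in 2 of 8 fits with 1 library left out, and after the GC and length correction it stood at 0.21 in log2 (edgeR adjusted p = 0.114). Hlf, the third gene of that family, had -0.14 ± 0.07 in log2 and did not pass (edgeR adjusted p = 0.245).

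Per gene length the order of levels was set by FPKM (fragments scaled by gene length and library total), averaged over the 8 libraries. Tef stood at 60.4, Nr1d1 at 55.2, Cry2 at 42.0, Dbp at 32.7 and Nr1d2 at 24.4 FPKM. Below them came Per1 at 16.5, Clock at 10.9, Per2 at 8.15, Cry1 at 5.14 and Per3 at 3.64 FPKM. The ranges over the 8 libraries overlapped between Tef and Nr1d1, Nr1d1 and Cry2, Clock and Per2, Per2 and Cry1, and Cry1 and Per3. The other neighbours in that order had separate ranges. The order of Tef and Nr1d1 differed by diet. In control libraries Nr1d1 averaged 60.2 ± 2.33 and Tef 55.5 ± 3.51 FPKM, with Tef above in 1 of 4. In ketogenic libraries Tef averaged 65.2 ± 2.70 and Nr1d1 50.3 ± 5.04 FPKM, with Tef above in 4 of 4. Clock was above Per2 in 7 of 8 libraries.

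Relations between clock genes within a library hardly depend on how libraries are scaled, so they were read as log2 ratios of CPM. Of 6 pairs chosen to span the known order of peaks, Per1 to Per2 differed most between diets. That log2 ratio was 2.13, 2.13, 1.59 and 1.56 in control and 1.41, 0.93, 1.07 and 1.19 in ketogenic libraries. The groups did not overlap, and control replicates 1 and 2 stood above replicates 3 and 4. Its mean went from 1.85 ± 0.32 to 1.15 ± 0.21, a difference of -0.70 (exact two-sided permutation p = 0.0286, the smallest that 70 assignments allow, adjusted over the 6 pairs 0.0686). Per1 RNA was thus closer to Per2 RNA in all 4 ketogenic libraries than in any control library. This ratio is made of the Per1 and Per2 values given above, which went opposite ways, so its p is not separate evidence.

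The other ratios overlapped between diets. Nr1d1 to Dbp was 1.25, 1.1, 1.08 and 0.94 in control and 1.0, 0.56, 0.72 and 0.58 in ketogenic libraries, a difference of -0.37. Dbp to Arntl was 0.43, 0.88, 0.74 and 0.76 against 0.78, 1.06, 1.01 and 1.18, a difference of 0.30. Ketogenic replicate 1 was the ketogenic library nearest the controls in both. Per2 to Dbp differed by 0.28 and Cry1 to Dbp by 0.31, each with 1 library crossing. These 4 ratios had an exact permutation p of 0.0571 each (adjusted 0.0686). Cry1 to Cry2 differed by 0.19 (exact permutation p = 0.229, adjusted 0.229), with an SD of 0.18 in control and 0.21 in ketogenic libraries. A difference between the cryptochrome changes was thus not shown. With 0 of 6 ratios past an adjusted p of 0.05 and 1 at an unadjusted p under 0.05, the design of 4 against 4 limits what these tests can show.

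**Figure D2:**
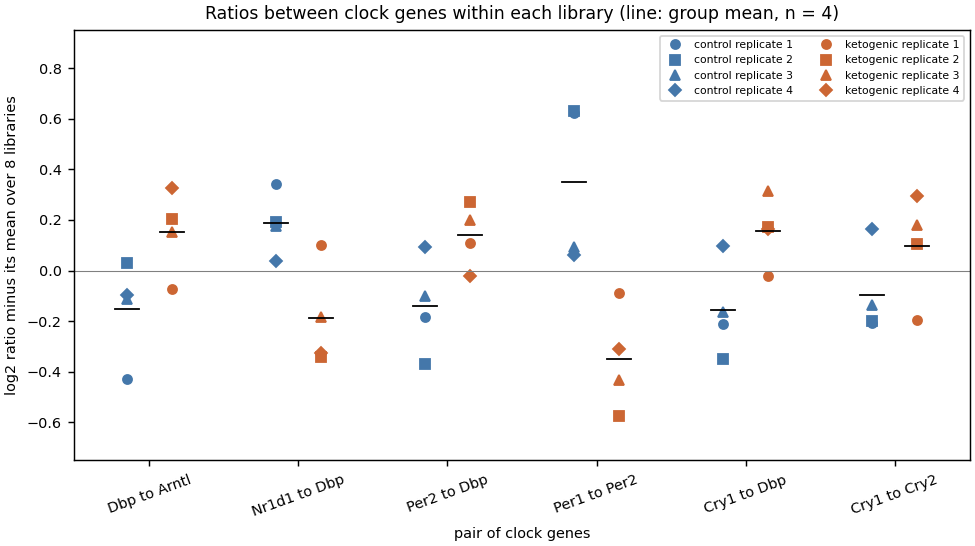
Log2 ratios of CPM between pairs of clock genes in each library, each minus its mean over the 8 libraries, for control (blue) and ketogenic (orange) libraries with a line at the group mean. Per1 to Per2 separates the diets without overlap and has the largest difference (-0.70).

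Library by library, the 10 genes did not shift as 1 block. Ketogenic replicates 2, 3 and 4 shared low Nr1d1 and Per1 and high Cry1, with log2 deviations from the mean of all 8 libraries of -0.28, -0.09 and -0.24 for Nr1d1, of -0.24, -0.14 and -0.24 for Per1 and of 0.23, 0.41 and 0.25 for Cry1. Ketogenic replicate 1 was nearer to the controls, at 0.07 for Nr1d1, -0.01 for Per1 and -0.05 for Cry1. For other genes it was not: it stood at 0.14 for Cry2 and 0.13 for Tef, while ketogenic replicate 4 was at -0.04 for Cry2 and, for Per2, at 0.07 against 0.08 in replicate 1. Among controls, replicates 1 and 2 were lowest for Per2 (-0.39 and -0.37) and Cry1 (-0.42 and -0.35), while replicate 4 was at 0.11 for both.

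**Figure D3:**
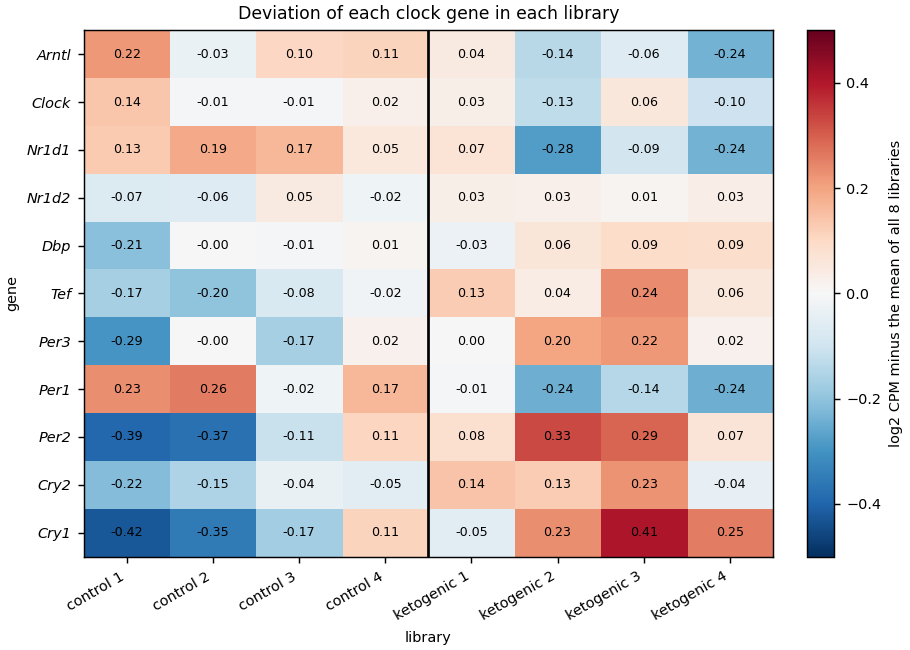
Log2 CPM of 10 clock genes and Arntl in each library minus the gene's mean over all 8 libraries, blue for lower and red for higher, rows in the approximate order of peak times known for rodent tissues and columns by library. Control replicates 1 and 2 are low for Per2 and Cry1, and ketogenic replicates 2 and 4 are low for Nr1d1 and Per1.

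Within the diets, genes that peak near each other were compared across libraries after removing each diet's mean. Of 8 pairs, Dbp and Per3 had the highest relation (Pearson r = 0.76, exact permutation p = 0.033, adjusted 0.264, and Spearman rho = 0.88, p = 0.0139, adjusted 0.111, n = 8). Without the 2 libraries farthest from the median of Dbp, r was 0.20, so the relation rests on those libraries. Dbp and Arntl, which peak in opposite phases, had r = -0.71 (exact permutation p = 0.0885, adjusted 0.354, and rho = -0.43, p = 0.208), and 0.12 without the 2 farthest libraries. Per1 and Per2 had r = -0.44 (exact permutation p = 0.342, and rho = -0.38, p = 0.391), and -0.38 without the 2 farthest. Per1 and Fos had r = 0.50 (exact permutation p = 0.285, and rho = 0.45, p = 0.319), and 0.44 without the 2 farthest. Nr1d1 and Arntl had r = 0.53 (p = 0.260, exact permutation) and rho = 0.48 (p = 0.351), with 0.19 without the 2 farthest. Dbp with Tef (r = 0.28, p = 0.578, rho = 0.21, p = 0.660), Dbp with Nr1d1 (r = -0.35, p = 0.313, rho = 0.05, p = 0.894) and Nr1d1 with Nr1d2 (r = -0.02, p = 0.939, rho = -0.24, p = 0.528) had exact permutation p values above 0.3. Without the 2 farthest libraries their r was 0.48, 0.38 and -0.11. Of the 8 pairs 0 passed after adjustment (lowest adjusted p 0.264 for r and 0.111 for rho), and 1 had an unadjusted p under 0.05 by either measure.

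Of 24 other loop and output genes of the clock, all tested, 1 rose, 1 fell and 22 did not pass, beside 6.52% of all tested genes that passed, with a median log2 change of 9.3e-04. That list too was chosen with earlier results of these data known. Csnk1d, a kinase that marks PER proteins for degradation, was at 135, 144, 144 and 155 CPM in control and 157, 177, 171 and 162 CPM in ketogenic libraries, with no overlap (log2 change 0.21 ± 0.06, edgeR adjusted p = 0.0424). Rorb, a nuclear receptor gene that activates Arntl and is expressed in sensory cortex, was at 39.8, 40.5, 36.1 and 33.4 against 29.2, 28.7, 32.7 and 28.9 CPM, also with no overlap (log2 change -0.33 ± 0.08, edgeR adjusted p = 0.0261). Of the 24 genes 3 had no overlap, Csnk1d and Rorb among them, beside 13.7% of all tested genes. After the GC and length correction 0 of the 24 passed in edgeR, with 5 at an unadjusted p under 0.05. In that fit 2859 of the 14895 tested genes had an unadjusted p under 0.05, and 2.01% passed.

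The other genes of this list given here did not pass. Rora, the ROR gene that competes with REV-ERB at Arntl, had a log2 change of -0.20 ± 0.07 (edgeR adjusted p = 0.0829). Nfil3, which encodes the repressor that opposes DBP at D-boxes, had -0.24 ± 0.10 (adjusted p = 0.165). Bhlhe40 and Bhlhe41, E-box repressor genes, had -0.18 ± 0.07 and -0.03 ± 0.08, Ciart, another repressor gene of the loop, 0.04 ± 0.11, and Csnk1e, the paralog of Csnk1d, 0.05 ± 0.05 (adjusted p = 0.144, 0.884, 0.872 and 0.602).

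**Figure D4:**
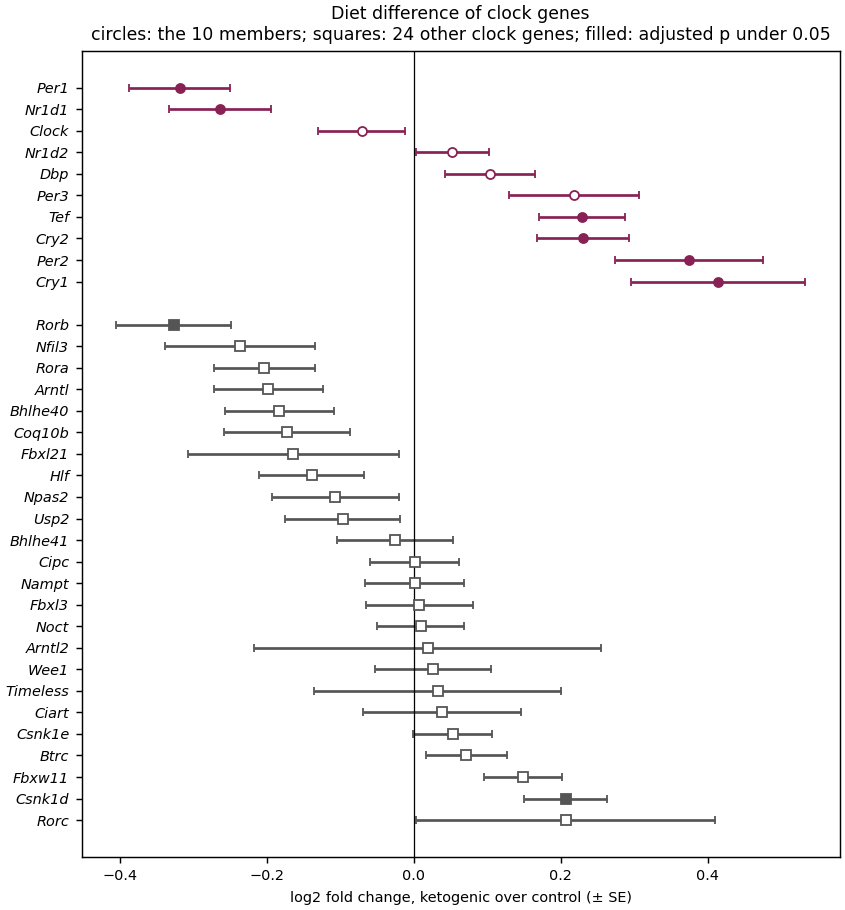
Log2 fold change of ketogenic over control (± SE) from edgeR for the 10 clock genes (circles) and 24 other clock genes (squares), filled where the adjusted p is under 0.05. Among the 10, Per1 and Nr1d1 are filled on the lower side and Cry1, Per2, Cry2 and Tef on the higher side, and among the other 24 only Rorb and Csnk1d are filled.

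Per1 has inputs other than the loop: its promoter region responds to cAMP and calcium signals through CREB, and to glucocorticoids. Of 8 CREB-induced genes, all tested, 7 fell, 0 rose and 1 did not pass, with a median log2 change of -0.66. This list was chosen with earlier results of these data known, so its counts are a description and not separate evidence. Over all tested genes 3.22% were lower and 3.3% higher past the threshold. Fos, a subunit of the AP-1 factor, was at 67.2, 67.0, 53.5 and 55.7 CPM in control and 29.3, 33.2, 30.3 and 25.1 CPM in ketogenic libraries (log2 change -1.04 ± 0.09, edgeR adjusted p = 8.34e-05). Control replicate 3 was the lowest control for Fos as for Per1, and the diets were far apart. Sik1, a kinase gene that curbs CREB signalling to Per1, was at 33.0, 35.1, 30.8 and 30.8 against 22.2, 25.3, 20.6 and 23.1 CPM (log2 change -0.51 ± 0.08, edgeR adjusted p = 0.00558). Of the 7, Junb passed in 2 of 8 fits with 1 library left out and the other 6 in all 8. Crem, the member that did not pass, had a log2 change of -0.03 ± 0.10.

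Of 8 glucocorticoid-induced genes, all tested, 4 rose (Fkbp5, Zbtb16, Sult1a1 and Cdkn1a), 0 fell and 4 did not pass, with a median log2 change of 0.25. These counts stand beside 3.3% of all tested genes higher and 3.22% lower, for a list also chosen with earlier results of these data known. Fkbp5, whose protein holds the glucocorticoid receptor in a less sensitive state, was at 48.0, 66.6, 66.9 and 68.0 CPM in control and 98.5, 133, 122 and 107 CPM in ketogenic libraries (log2 change 0.88 ± 0.11, edgeR adjusted p = 0.000819). Fkbp5 and Zbtb16 passed in all 8 fits with 1 library left out, Sult1a1 in 5 and Cdkn1a in 4, and Cdkn1a had an edgeR adjusted p of 0.0512 after the GC and length correction. Tsc22d3, the leucine zipper gene known as Gilz, had a log2 change of 0.06 ± 0.09 (adjusted p = 0.766). Per1 thus changed in the direction of the CREB-induced list and opposite to the members of the glucocorticoid list that rose. What part either input had in Per1 was not tested.

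Among the 13517 genes ranked for likeness, those whose diet-centred log2 CPM followed Dbp most closely over the 8 libraries were Esrra (r = 0.98), Mvb12a (0.98), Dnajc10 (0.98), B4gat1 (0.97) and LOC118568312 (0.97). The most opposed to Dbp were Prr12 (-0.98), Myo16 (-0.98), Ankrd17 (-0.97), Tuba1a (-0.96) and Scaf4 (-0.96). Dbp was far lower in control replicate 1 (69.9 CPM) than in the other controls (80.3 to 81.8 CPM). The r values with Dbp can thus lean on that library, and they were not computed without it. For Per1 the most alike were Cenpo (0.96), Kctd12 (0.95), Cwh43 (0.95), Cd276 (0.95) and Megf9 (0.95). The most opposed to Per1 were Sod1 (-0.96), Coq10b (-0.96), Timm21 (-0.95), Wdr54 (-0.95) and Fancc (-0.95). Of these genes Coq10b was on the list of other clock genes, and values this high are found by searching many genes over few libraries.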

How the data were processed

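Messenger RNA of whole brain was sequenced in 8 libraries, 4 per diet, from 1.3 ug of total RNA each, per the labels' protocols. The authors deposited raw counts per gene symbol and FPKM values. The FPKM equalled the deposited count divided by 1 length per gene and by the library total (largest relative spread of the implied length 1.79e-07 over 14009 genes with at least 10 counts in each library). Per the submitters' processing notes the build was GRCm38, also called mm10. No source used here names the aligner, the counting program, the strand setting or the annotation.

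Counts were tested with edgeR 4.0.16 (TMM factors, filterByExpr, quasi-likelihood F test, diet as the term), which kept 14895 genes and left out 3088. The SE is the log2 change divided by the square root of F. Ratios and correlations used log2 CPM with a prior count of 2. Ratios were tested by exact permutation over 70 assignments and correlations over 576 orders within diets. Genes most like Dbp and Per1 were ranked among genes with a mean CPM of at least 1. Alternatives were DESeq2 1.42.0, limma 3.58.1 (voom, and log2 FPKM with a pseudocount of 1 or 0.1), other scaling and filters, a loess correction (span 0.3) on GC content (known for 98.1% of tested genes) and length, and libraries left out. The loess degree was changed from 1 to 2 after the first output had been seen, and degree 1, and GC and length taken out in turn, are alternatives chosen after seeing the data. The edgeR script was tested on simulated data. The deviations of same-numbered libraries of the 2 diets correlated weakly (0.0218 to 0.0759), and 2 of 4 control libraries correlated best with their own number. Numbers were not treated as pairs in the main fit. With a replicate block 1528 genes passed, against 971 without it, and the check cannot exclude a factor shared by number. Gene overlaps are from GENCODE M21 on GRCm38, and promoter windows from RefSeq on GRCm38.p6.

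The 10 genes were given by name. Of the other clock genes every one past the threshold and a fixed set were named, and Fos, Sik1, Fkbp5 and Tsc22d3 of the induction lists. The motifs were picked from textbook knowledge after the files had been read. Members and lists were chosen with earlier results of these data known.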

Additional observations from a re-analysis of the deposited data

Results flagged for a closer look

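Dbp in control replicate 1 was 69.9 CPM, far below the other 3 control libraries at 80.3 to 81.8 CPM, and the gap was 0.879 of the range of the group. The summed level of endothelial markers in control replicate 3 was 135 CPM, with the other controls at 164 to 169 CPM and a gap of 0.855 of the range. Chance alone gives such a gap in about 1 in 20 groups, and it was met in 2 of the 56 groups examined.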

How the results depend on the processing

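Of the 10 clock genes 0 passed with limma on log2(FPKM + 1) or log2(FPKM + 0.1) (6 at an unadjusted p under 0.05 in each) or without ketogenic libraries 3 and 4 together (5 in edgeR). After the GC and length correction of degree 2, of degree 1 and with both trends taken out in turn 1 passed, and with each library left out 0 to 6 did. Degree 2 replaced degree 1 after the first output had been seen, and the form in turn was also chosen after seeing the data. Of the 24 others 0 passed with limma on FPKM, without ketogenic libraries 3 and 4 together or after any of these corrections. At an adjusted p under 0.1 4 of the 24 passed, and with each library left out 0 to 4 did. With limma on FPKM 3672 and 3652 of all 17983 genes had an unadjusted p under 0.05. Without ketogenic libraries 3 and 4 together 2565 of 15212 genes did in edgeR. Over all genes 1719 passed by DESeq2's Wald test, 64 and 88 by limma on FPKM, 299, 312 and 311 after those 3 forms of the correction (GC content is that of the longest GENCODE transcript of each symbol, and other sources of it were not tried), 90 without ketogenic libraries 3 and 4, 2009 at an adjusted p under 0.1 and 146 to 1900 with each library left out. The cause of these moves was not tested. With a replicate block 1528 genes and the same 6 clock genes passed, and every sign-flip test of a ratio over the 4 numbered pairs allowed no p below 0.125; 2 of 4 control libraries correlated best with their own number. The Clock change was 0.0463, 0.0477 and 0.047 after the 3 forms of the GC and length correction. With 1 library left out the correlation of Nr1d1 with Nr1d2 ran from -0.31 to 0.09 and was above 0 when control replicate 2 (0.0899), control replicate 4 (0.00285), ketogenic replicate 3 (0.00277) or ketogenic replicate 4 (0.0177) was left out, and that of Dbp with Nr1d1 ran from -0.75 to 0.0378 (without ketogenic replicate 1) with 1 library left out. The other 6 correlations and all 6 ratios kept their direction with 1 library left out and under the other prior count, unit and scaling. Without the 2 libraries farthest from the median of Dbp, its correlations with Nr1d1 (0.38) and Arntl (0.12) were above 0. Counting error was not separated from the spread between libraries, which 4 libraries a group estimate only roughly.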
